A study of Rattus norvegicus with 6 samples.

Results

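Fatty acid oxidation is described here through 9 genes in rat subchondral bone, the bone under the joint cartilage of the tibial knee. The members were chosen by name, by a rule with no threshold on a measured value, though with earlier results of these data known: Cpt1a, Cpt1b and Cpt2 of the carnitine shuttle, Acadm, Acadl and Acadvl for the first step of beta oxidation, Hadha and Hadhb for its later steps, and Pdk4, which restrains the use of glucose carbon. All 9 had exactly 1 row, among 30600 rows with values. The set carries a name that also refers to peroxisomes, but none of its members is a peroxisomal enzyme, so peroxisomal genes are given further on as companions. RNA-seq counts and FPKM (fragments scaled both to transcript length in kilobases and to library size) were available for 6 libraries, whose titles are S10, S12 and S13, and S20, S21 and S23. The study set out to compare cold with normal temperature in rats, but no label ties a library to a temperature, treatment, strain, sex or age. No library was therefore placed in a group, nothing was tested between groups, and values are given by library.

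Long-chain fatty acids enter mitochondria as carnitine esters. CPT1 at the outer membrane makes the ester and is the step that malonyl-CoA inhibits, and CPT2 at the inner membrane turns it back into an acyl-CoA. Acyl-CoA dehydrogenases then start each round of beta oxidation, and the trifunctional protein, built from HADHA and HADHB, completes it for long chains. Osteoblasts and marrow adipocytes are known to oxidise fatty acids, as are red muscle fibres.

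Total counts were 39990624 to 59200981 per library. The 4 named globin rows took 10.4% (S23) to 27.6% (S10) of them, a share that enters the scaling of every FPKM value. The tissue label was met by the bone genes Col1a1 (166 to 362 FPKM) and Bglap (255 to 610 FPKM), while of 6 liver genes Alb and Ttr had 0 counts in all 6 libraries, Cps1, Cyp2e1 and Apoa1 had 2, 8 and 77 counts in all, and Serpina1 had 0.853 to 2.67 FPKM. All 7 skeletal muscle marker rows and 6 of 8 expressed adipocyte markers were highest in S12, beside 26.6% of all expressed genes. The values of these markers are given beside those of Cpt1a and Pdk4. In bulk RNA, fewer cells of a type and less RNA per cell cannot be told apart.

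Among the members, the dehydrogenase and trifunctional protein genes were well expressed, and the CPT genes and Pdk4 were low. By median FPKM over the libraries, the order was Hadhb (47.0), Hadha (40.1), Acadl (36.9), Acadm (22.6), Acadvl (16.6), Cpt2 (3.97), Cpt1a (3.33), Cpt1b (0.563) and Pdk4 (0.360). Hadhb, Hadha and Acadl overlapped in their ranges over the libraries, as did Cpt2 and Cpt1a, and Cpt1b and Pdk4, while Acadm and Acadvl also overlapped. The 5 genes of the dehydrogenases and the trifunctional protein lay above Cpt2 and Cpt1a in every library. A median of at least 1 FPKM was reached by 7 of the 9, and Cpt1b and Pdk4 stayed under it.

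**Figure D1:**
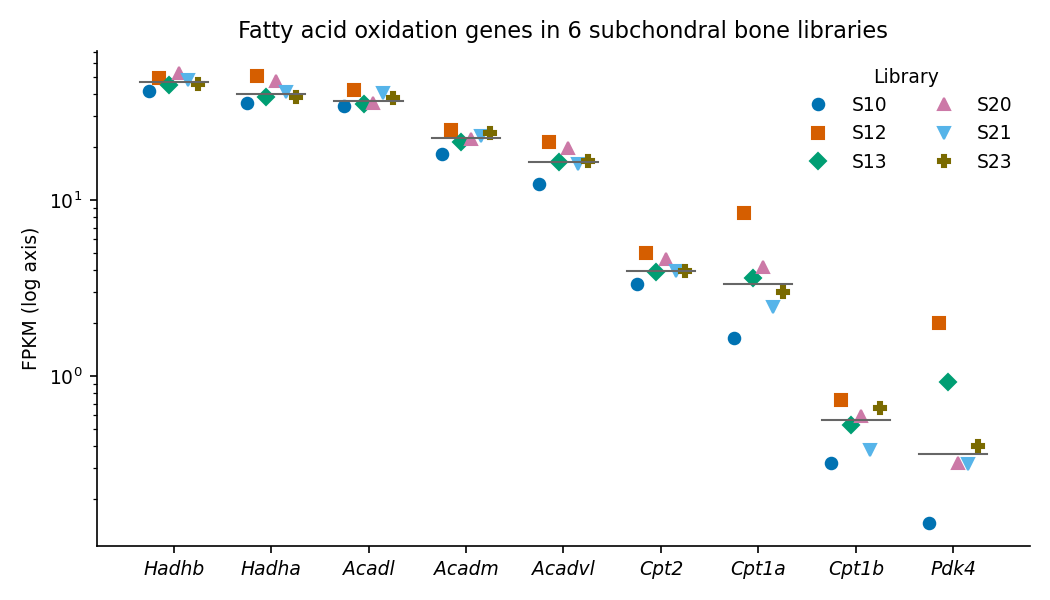
FPKM (log axis) of the 9 members in the 6 libraries, with 1 point per library and a grey line at the median. The 5 enzymes on the left lie between 12.4 and 52.7 FPKM with little spread, whereas Cpt1a and Pdk4 are spread widely and have their highest point in S12.

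HADHA and HADHB are the alpha and beta subunits of the mitochondrial trifunctional protein. Hadha (ENSRNOG00000024629) had 50.6 FPKM in S12, 47.8 in S20, 41.5 in S21, 38.7 in S23, 38.5 in S13 and 35.9 in S10. Hadhb (ENSRNOG00000010800) had 52.7 FPKM in S20, 49.4 in S12, 48.2 in S21, 45.7 in S23, 45.5 in S13 and 42.0 in S10. Both were lowest in S10, and S12 and S20 held the highest values of each. Within a library, where scaling cancels out, the ratio of Hadha to Hadhb was 0.846 to 0.906 in 5 libraries and 1.03 in S12, the only library in which Hadha was the higher. The median log2 ratio on the log2(FPKM + 1) scale was -0.22.

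These genes lie head to head in the rat genome. In the RefSeq annotation of GRCr8, 243 bases separate their outer ends. That stretch is shown because it lies upstream of both subunit genes, whose levels stayed within a narrow ratio. It spans chr6:31907558-31907800 of GRCr8 and is written on the plus strand, with Hadha to its right and Hadhb, on the minus strand, to its left. Capitals mark a match to the GC box motif GGGCGG on either strand.
Hadhb-Hadha: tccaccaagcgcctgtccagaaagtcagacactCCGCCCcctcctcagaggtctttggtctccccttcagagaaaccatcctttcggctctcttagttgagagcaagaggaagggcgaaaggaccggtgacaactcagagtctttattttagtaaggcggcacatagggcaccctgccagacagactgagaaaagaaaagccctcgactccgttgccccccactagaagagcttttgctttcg

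The acyl-CoA dehydrogenases differ in the chain length they prefer. Acadl (ENSRNOG00000012966), for long chains, had 42.5 FPKM in S12, 40.6 in S21, 38.0 in S23, 35.8 in S20, 35.3 in S13 and 34.5 in S10. Acadm (ENSRNOG00000009845), for medium chains, had 25.2 FPKM in S12, 24.2 in S23, 23.1 in S21, 22.2 in S20, 21.4 in S13 and 18.4 in S10. Acadvl (ENSRNOG00000018114), for very long chains, had 21.5 FPKM in S12, 19.8 in S20, 16.7 in S23, 16.4 in S13, 16.1 in S21 and 12.4 in S10. Acadl was above Acadm and Acadm above Acadvl in every library. The ratio of Acadl to Acadvl was 1.81 to 2.77. In the deposited values Acadvl had the widest relative spread of these 3 genes, with 1.73 times as much in S12 as in S10. With library factors from the trimmed mean of M-values (TMM), which estimate scaling from the bulk of genes, Acadvl had 18.6 FPKM in S12 and 16.3 in S10, and its lowest value was 15.5 in S23. Its range was then 0.25 log2 units, and that of Acadl, at 45.1 FPKM in S10 and 32.0 in S20, was the wider (0.48). In GRCr8 the gene Dvl2 lies 51 bases from Acadvl, and Dvl2 had 5.54 to 7.61 FPKM.

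Of the CPT genes, Cpt2 and the liver-type gene Cpt1a were the more abundant, and the muscle-type gene Cpt1b was low. Cpt2 (ENSRNOG00000012443) had 5.01 FPKM in S12, 4.62 in S20, 3.99 in S23, 3.95 in S21, 3.90 in S13 and 3.36 in S10. Cpt1b (ENSRNOG00000010438) had 0.730 FPKM in S12, 0.657 in S23, 0.593 in S20, 0.532 in S13, 0.382 in S21 and 0.321 in S10, from 53 to 132 counts. Its 95% exact Poisson interval, which covers counting error only, was 0.241 to 0.420 FPKM in S10 and 0.611 to 0.866 FPKM in S12. Chkb, which lies 118 bases from Cpt1b in GRCr8, had a median of 11.5 FPKM, and whether reads of Chkb were counted for Cpt1b was not tested. Cpt1a exceeded Cpt1b in all 6 libraries, with a ratio of 11.6 in S12 and of 4.60 to 7.07 in the others. The median log2 ratio of these 2 genes was 1.47 on the log2(FPKM + 1) scale. The brain-type gene Cpt1c had a median of 0.213 FPKM.

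Cpt1a had the widest range of the members on the log2(FPKM + 1) scale. Cpt1a (ENSRNOG00000014254) had 8.46 FPKM in S12, 4.20 in S20, 3.64 in S13, 3.02 in S23, 2.49 in S21 and 1.65 in S10, from 311 to 1743 counts. The value in S12 was 5.13 times that in S10, and no other library exceeded 4.20 FPKM. Counting error was small beside these differences: the 95% exact Poisson interval was 8.06 to 8.86 FPKM in S12 and 3.91 to 4.50 FPKM in S20. Its partner Cpt2 did not vary to the same extent. The ratio of Cpt1a to Cpt2 was 1.69 in S12, 0.933 in S13, 0.909 in S20, 0.758 in S23, 0.631 in S21 and 0.490 in S10. Only in S12 was Cpt1a above Cpt2.

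PDK4 phosphorylates and inhibits the pyruvate dehydrogenase complex, which limits the entry of glucose carbon when fat is burned. Pdk4 (ENSRNOG00000009565) had 2.01 FPKM in S12, 0.931 in S13, 0.399 in S23, 0.320 in S20, 0.318 in S21 and 0.146 in S10. These values came from 151, 87, 33, 23, 33 and 11 counts in the same order. S12 was the highest and S13 the second highest, and their 95% exact Poisson intervals, 1.71 to 2.36 FPKM and 0.746 to 1.15 FPKM, overlapped neither each other nor those of the other 4 libraries. The interval in S10, 0.0731 to 0.262 FPKM, overlapped those of S20 and S21 but not that of S23. Pdk4 was thus the least abundant of its family in the median, below Pdk3 (28.6 FPKM), Pdk1 (6.72 FPKM) and Pdk2 (4.14 FPKM), and reached 0.0765 of the Pdk3 level in S12.

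The upstream sequence of Pdk4 is shown because Pdk4 had the largest relative spread of the members. It covers 250 bases before the RefSeq start, at chr4:34568330-34568579 of GRCr8, and is written 5′ to 3′ on the minus strand, that of the gene. Capitals mark matches to the GC box GGGCGG and to the CCAAT box, read as CCAAT or ATTGG.
Pdk4: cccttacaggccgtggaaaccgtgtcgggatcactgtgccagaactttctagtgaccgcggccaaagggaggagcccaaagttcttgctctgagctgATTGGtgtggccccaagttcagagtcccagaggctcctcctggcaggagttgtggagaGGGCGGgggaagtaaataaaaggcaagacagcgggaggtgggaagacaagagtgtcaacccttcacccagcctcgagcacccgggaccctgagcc

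Promoter windows were available for 7 of the 9 members. In the 250 bases before the start, a GC box (GGGCGG, both strands) was found in 4 of them, Cpt2, Hadha, Hadhb and Pdk4, against 30.5% of 33469 windows in the rat table. The same stretch of DNA served both Hadha and Hadhb. A CCAAT box was found in Pdk4 alone, against 34% of windows. The nuclear receptor half-site AGGTCA was found in Acadvl alone, against 14.1% of windows. The direct repeat AGGTCANAGGTCA, a form bound by PPAR receptors, was found in no member and in 0.0508% of windows, and the element TCAAGGTCA of estrogen-related receptors, which contains the half-site, in no member and in 0.388%. TATAAA was found in no member and in 12.9% of windows. These counts say only whether the letters stand in these windows.

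Most members varied less over the libraries than a typical gene, and Cpt1a and Pdk4 varied more. The range over the libraries, highest minus lowest log2(FPKM + 1), had a median of 0.46 over the 9 members and of 0.83 over the 11625 annotated genes that reached 1 FPKM in the median. A range of at least 1 was found for 2 of the 9 members, Cpt1a (1.84) and Pdk4 (1.39), and for 36.6% of those genes. For the 7 members past the same minimum the count was 1, that of Cpt1a. The other ranges were 0.30 for Acadl, 0.32 for Hadhb, 0.39 for Cpt1b, 0.43 for Acadm, 0.46 for Cpt2, 0.48 for Hadha and 0.74 for Acadvl. This scale compresses genes under 1 FPKM, so the values of Cpt1b and Pdk4 understate their spread. The range of Cpt1a exceeded that of 93.5% of the expressed genes, and the range of Acadl exceeded that of 5.59%. Without S12, no member reached a range of 1, and those of Cpt1a and Pdk4 were 0.97 and 0.75.

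**Figure D2:**
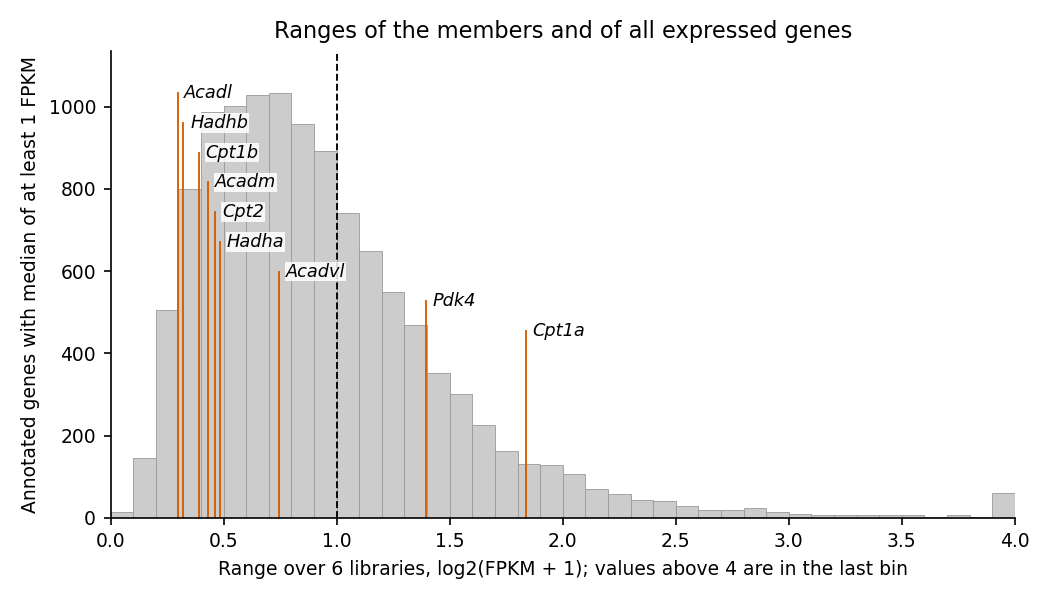
Histogram of the range over the 6 libraries, in log2(FPKM + 1), for the 11625 annotated genes that reached 1 FPKM in the median, with an orange line at each member. Only Pdk4 (1.39) and Cpt1a (1.84) lie to the right of the dashed line at 1, and the height of a line has no meaning.

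In the deposited FPKM all 9 members were lowest in S10 and 8 were highest in S12, with Hadhb highest in S20. The same libraries were extreme for many other genes: 60.1% of the expressed genes were lowest in S10 and 26.6% were highest in S12. TMM scaling moved values by 0.39 log2 units upward in S10 and by 0.21 downward in S12, and relative to these shifts only 2 members, Cpt1a and Pdk4, were still lowest in S10, beside 32.9% of the expressed genes. Under TMM scaling 4 members, Cpt1a, Cpt1b, Acadvl and Pdk4, were highest in S12, beside 13.4% of the expressed genes, and the 2 members with a range of at least 1 were again Cpt1a (1.39) and Pdk4 (1.20), beside 29.4%. Hadha, Hadhb, Acadl, Acadm and Cpt2 were then highest in S10, so that no direction can be given for these 5.

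S12 was the highest library for Cpt1a and for Pdk4 under all 7 alternative settings that kept the 6 libraries. Above its own median over the libraries, Cpt1a stood 1.13 log2 units higher in S12 in the deposited values, 0.97 with TMM scaling and 0.90 after correction for gene length. Pdk4 stood 1.15, 1.02 and 1.13 log2 units higher in S12 in the same 3 settings. The low value of Cpt1a in S10, by contrast, was -0.71 in the deposited values, -0.43 with TMM scaling and -0.05 after length correction. Length correction also takes out shifts shared by all genes of a library, so this change cannot be credited to length alone. The transcript length implied by counts and FPKM was 4729 bases for Cpt1a, the longest of the 9 members, and 1598 (Acadl) to 4147 bases (Cpt1b) for the others.

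**Figure D3:**
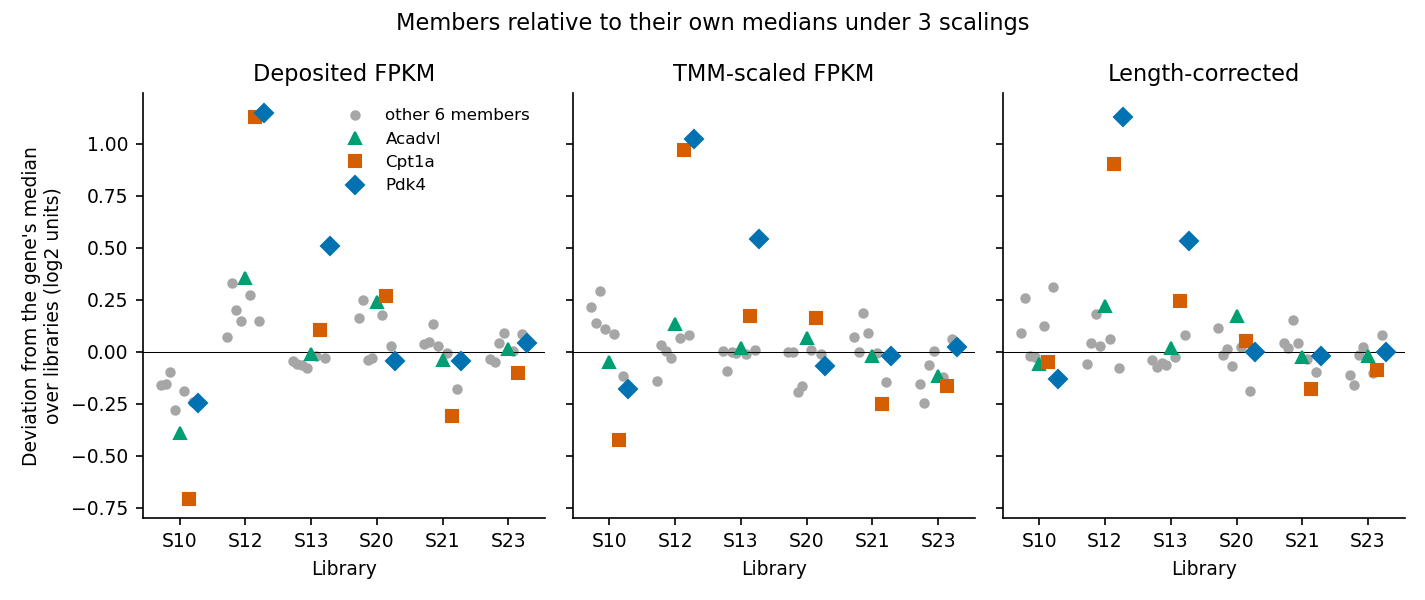
Deviation of each member from its own median over the libraries, in log2 units, in the deposited FPKM, with TMM scaling and after length correction, with 1 point per member and library. Cpt1a and Pdk4 stand 0.90 or more above their medians in S12 in all 3 panels, while S10 is the lowest library of all 9 members in the deposited values and of 2 in each of the other panels.

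Ratios between members in the same library do not depend on library scaling. Of the 21 pairs among the 7 members with at least 1 FPKM, the tightest was Hadha to Cpt2, with FPKM ratios of 9.71 to 10.7 and a range of 0.14 log2 units. Acadvl to Cpt2 (0.21), Acadl to Acadm (0.25) and Hadhb to Hadha (0.28) followed. The widest was Hadhb to Cpt1a, with a range of 2.13. The pairs were ranked after their values were seen, and a ratio of genes of unlike length keeps any length trend between libraries.

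Genes of fat and muscle were also high in S12, but not these alone. In the deposited values, the chondrocyte (219 FPKM), macrophage (646 FPKM) and osteoblast (2284 FPKM) marker sums were highest there too. The osteoclast and neutrophil sums were then highest in S23, and the erythroid and proliferation sums in S20. These ranks depend on scaling, since TMM factors move S10 up by 0.39 log2 units and S12 down by 0.21. After these shifts S10 instead held the highest macrophage, osteoblast, osteoclast, erythroid and adipocyte sums. The chondrocyte and muscle sums stayed highest in S12. The 10 adipocyte marker rows summed to 894 FPKM in S12, 716 in S10, 462 in S13, 445 in S23, 414 in S21 and 321 in S20. Of the 8 with a median of at least 1 FPKM, 6 were highest in S12, beside 26.6% of all expressed genes. With TMM scaling 5 were, beside 13.4%. The exceptions in the deposited values were Cfd, highest in S10 (435 FPKM), and Retn, highest in S23 (148 FPKM), and Fabp4 was highest in S10 with TMM scaling. The sum was dominated by Cfd and Fabp4. The more fat-restricted Adipoq, which encodes adiponectin, had 62.5 FPKM in S12 against a median of 11.7 FPKM, and Plin1, which coats lipid droplets, reached 14.6 FPKM in S12, against a lowest value of 0.136 FPKM in S23.

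The 7 skeletal muscle marker rows summed to 149 FPKM in S12, 66.3 in S13, 51.9 in S21, 28.8 in S10, 17.3 in S23 and 13.8 in S20. All 7 were highest in S12, also with TMM scaling. S12 and S13 were the top libraries of this sum and of Pdk4, whereas S20, the second highest for Cpt1a, was the lowest in this sum. Cpt1b, the CPT1 gene that muscle expresses most, was also highest in S12, but with counting intervals that overlapped those of S13, S20 and S23. After length correction Cpt1b was instead highest in S10, and in S12 it lay below its own median (-0.08). Of 5 brown fat markers, Ucp1, Elovl3 and Cox8b had 0 counts in all libraries, which allows up to 3 counts in each. Cidea, which white fat can also express, had 0.622 to 10.8 FPKM and was highest in S12, also with TMM scaling and after length correction, and Prdm16 had at most 0.0854 FPKM, in S12. The 8 slow and cardiac type muscle markers did not follow the other muscle sum: they summed to 19.5 FPKM in S12, the second lowest value, and to 12.9 (S20) to 43.5 FPKM (S23) in the others. Tnnc1 made up most of that sum (8.33 to 37.8 FPKM, highest in S23), and Tnnt1 had 3.43 to 5.10 FPKM. Myh7, Myl3 and Tnni1 were highest in S12, with at most 0.347, 2.07 and 0.806 FPKM, Fabp3 was highest in S10, and Myl2 and Actc1 had 0 counts. The part of fat or muscle RNA in the levels of Cpt1a and Pdk4 in S12 was not tested.

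**Figure D4:**
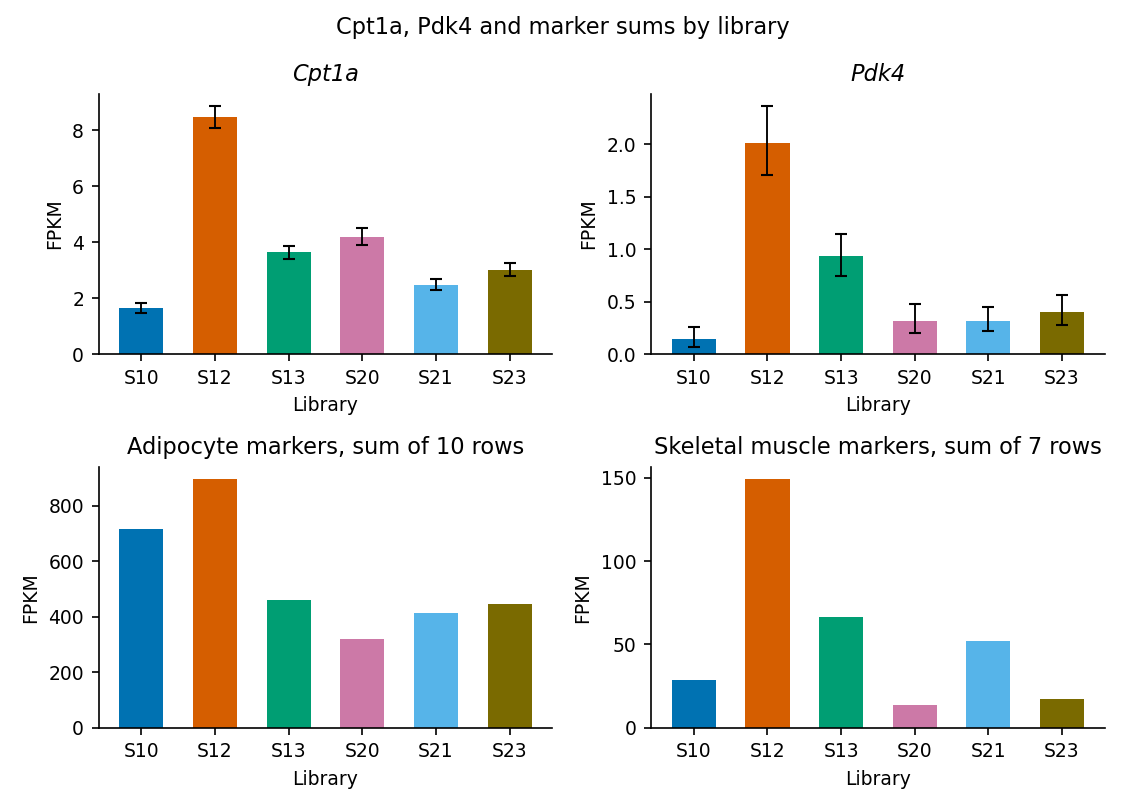
FPKM of Cpt1a and of Pdk4 in each library, with 95% exact Poisson intervals for counting error, above the summed FPKM of 10 adipocyte and 7 skeletal muscle marker rows. In the deposited values shown, S12 has the highest bar in all 4 panels, and S13 the second highest for Pdk4 and for the muscle sum. S10 is lowest for Cpt1a and Pdk4 but second highest for the adipocyte sum. TMM scaling would make S10 the highest library for the adipocyte sum. S20 is second highest for Cpt1a but lowest for both marker sums.

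The genes whose pattern over the 6 libraries lay nearest to Cpt1a were Sik2, Foxo1 and Sh3pxd2a, with root mean square differences of 0.14, 0.15 and 0.15 log2 units after centring each gene on its median. Their median levels were 2.37, 1.18 and 1.14 FPKM, and all 3 were highest in S12 and lowest in S10. Nearest to Pdk4 were RT1-N2, Ctgf and Pik3ip1, with differences of 0.09, 0.10 and 0.18 log2 units. All 3 were highest in S12, and their lowest values were in S10, S20 and S21. The log2(FPKM + 1) scale compresses the spread of Pdk4, which had 0.146 to 2.01 FPKM. RT1-N2 had 6.46 to 16.3 FPKM and Ctgf 24.0 to 56.4 FPKM, so their fold changes were smaller than that of Pdk4. Whether they stay nearest on a scale that compresses less was not tested. These matches, over 6 libraries, are given as a description. How often genes match as closely was not tested.

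Other genes listed with mitochondrial beta oxidation had medians of 2.10 (Acad10) to 108 FPKM, against 0.360 to 47.0 FPKM for the members. Of 17 listed genes, 16 had a row and all 16 had a median of at least 1 FPKM. The highest were Etfb (108 FPKM) and Etfa (48.8 FPKM), which encode the electron transfer flavoprotein that takes electrons from the dehydrogenases, followed by Hsd17b10 (45.6 FPKM) and Acat1 (39.1 FPKM). The median range was 0.62 log2 units. A range of at least 1 was found for 2 of the 16, Acadsb (1.49) and Echs1 (1.06), beside 36.6% of all expressed genes. With TMM scaling the count was 4, beside 29.4% of all expressed genes. Acadsb was highest in S12 and lowest in S10 under both scalings. The carnitine carrier Slc25a20 had a median of 21.8 FPKM and a range of 0.22, whereas the carnitine acetyltransferase Crat had 23.4 FPKM in S23 and 9.52 FPKM in S10. The range of Crat was 1.21 in these values. This contrast was smaller with TMM scaling, where the ranges were 0.58 for Slc25a20 and 0.75 for Crat. After length correction they were 0.27 and 0.85.

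Peroxisomal fatty acid oxidation was present. Of 19 listed genes 17 had a row and 14 a median of at least 1 FPKM, led by Scp2 (44.4 FPKM), Hsd17b4 (19.1 FPKM), Phyh (18.7 FPKM) and Acaa1a (16.9 FPKM). Ehhadh and Acox2, both prominent in liver, had at most 0.202 and 0.0286 FPKM. Ranges of at least 1 included those of Acox3 (2.02) and Pex11a (just past 1). Both were highest in S12 in the deposited values and with TMM scaling, where the range of Acox3 was 1.62 and that of Pex11a 0.90.

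Fatty acid uptake and activation held both level and variable genes in the deposited values. Acsl5 and Acsl1, acyl-CoA synthetases that trap fatty acids in the cell, had medians of 84.3 and 28.7 FPKM. Acsl5 stayed at 81.1 to 90.9 FPKM, while Acsl1 had 60.6 FPKM in S12 and 22.0 FPKM in S10. The range of Acsl5 was 0.16 in these values, but 0.66 with TMM scaling and 0.61 after length correction, highest in S10 in both. That of Acsl1 was 1.42, 1.19 and 1.07 in the same 3 settings. Lpl, the lipase that frees fatty acids from lipoproteins, reached 28.8 FPKM in S12, against 3.56 FPKM in S23, the widest range of the list (2.71), and Fabp4, which is also an adipocyte marker, had 309 FPKM in S12, its highest library in the deposited values but not with TMM scaling, where S10 was. Of 9 listed genes with at least 1 FPKM, 3 had a range of at least 1, these being Lpl, Fabp4 and Acsl1, a share close to the 36.6% of all expressed genes. There were 4 with TMM scaling, where Fabp5 (1.07) joined, beside 29.4% of all expressed genes.

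Among the 10 listed regulators of the pathway, Tfam, Nrf1 and Esrra had the highest medians. Of the PPAR receptors, lipid-sensing factors that drive these genes in other tissues, Pparg had a median of 6.36 FPKM, Ppard 2.61 FPKM and Ppara 0.160 FPKM. The coactivators Ppargc1b and Ppargc1a had medians of 0.304 and 0.0506 FPKM. Rxra, the partner receptor of the PPARs, had 13.7 FPKM in S12 and 2.14 FPKM in S10, a range of 2.23 that was 1.75 with TMM scaling. Tfam, Nrf1 and Esrra had medians of 21.9, 20.3 and 15.8 FPKM. Of the 7 regulators with at least 1 FPKM, 3 had a range of at least 1, beside 36.6% of all expressed genes. They were Rxra, Ppard (1.13) and Pparg (1.05) in the deposited values, and only Rxra with TMM scaling, beside 29.4%.

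Among other genes known as PPAR targets, Angptl4, an inhibitor of Lpl, had 5.52 FPKM in S12 and 0.937 FPKM in S10, and Txnip had 138 FPKM in S12 and 56.6 FPKM in S21. Both were highest in S12 with TMM scaling too. Ucp2 (596 FPKM) and Plin2 (19.4 FPKM) had ranges under 1. Of 6 such genes with at least 1 FPKM, 2 had a range of at least 1, Angptl4 and Txnip. This share was close to the 36.6% of all expressed genes.

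Malonyl-CoA, the inhibitor of CPT1, is made by acetyl-CoA carboxylase and removed by malonyl-CoA decarboxylase. Acaca, the carboxylase gene of lipid synthesis, had 3.20 FPKM in S12 and 0.310 FPKM in S10, a range of 1.68. Its mitochondria-linked relative Acacb had a median of 0.176 FPKM, and the decarboxylase gene Mlycd had 9.05 FPKM. Prkaa1, the AMP kinase subunit that inhibits the carboxylases, had 12.9 FPKM. Acaca was highest in S12 also with TMM scaling (1.42), and its range was 0.66 after length correction.

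The pyruvate dehydrogenase complex, which Pdk4 inhibits, was abundantly expressed. Pdha1 and Pdhb, its first enzyme, had medians of 41.1 and 39.9 FPKM, and the pyruvate carrier genes Mpc2 and Mpc1 90.5 and 53.8 FPKM. Of 7 genes, 1 had a range of at least 1, Mpc2 (1.05), beside 36.6% of all expressed genes. With TMM scaling there were 2, Mpc2 (1.52) and Mpc1 (1.24), both highest in S10, beside 29.4% of all expressed genes. After length correction there were none, beside 19.8%. The phosphatase gene Pdp2 and the kinase gene Pdk2 had ranges of 1.13 and 1.03 with their highest values in S12. With TMM scaling both were under 1 (0.72 and 0.56), and both were still highest in S12.

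**Figure D5:**
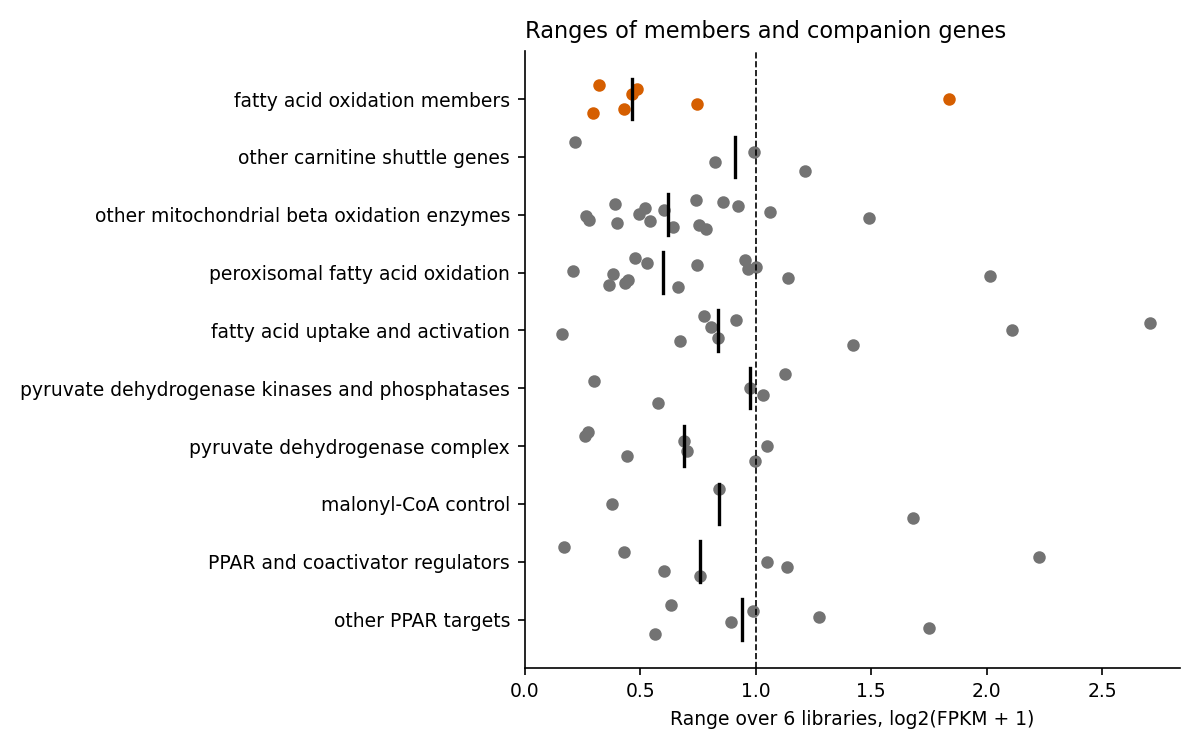
Range over the 6 libraries, in log2(FPKM + 1), of genes that reached 1 FPKM in the median, in orange for the 7 members past that minimum and in grey for 9 companion lists, with a black bar at each list's median. The members' median, 0.46, is the lowest of the 10, and Cpt1a at 1.84 is the only member past the dashed line at 1.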

How the data were processed

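The deposited table holds, for each of 6 libraries, a count column and an FPKM column. The deposited counts are whole numbers without normalization, and the FPKM values were made by the authors, per the file headers, and summed to 811992 to 1047309 per library. Per the labels' protocols, an RNeasy kit gave the RNA and a SMARTER kit for mRNA-Seq the libraries. Not given in the sources used here are the aligner, the counting tool, the use of strand, and whether each library is a separate animal. The builds named in the submitters' processing notes, GRCm38 and mm10, are of mouse, while row IDs are rat Ensembl IDs, so no gene coordinates are given for the counts. Of 30610 rows, 10 held no values.

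All libraries were kept unassigned. Values were described on the log2(FPKM + 1) scale, and a gene counted as expressed at a median of at least 1 FPKM. The range function was tested on simulated data. TMM factors came from edgeR 4.0.16, and length correction removed each library's median deviation in 20 bins of implied length. Neighbouring genes, promoter windows of 250 bases before and 50 after the start, and sequences came from RefSeq tables of GRCr8. The members and 22 further gene lists were chosen with earlier results of these data known. Named were all members, up to 4 genes of each pathway list by median FPKM, the CPT1 and PDK relatives, the 3 nearest genes of members with a range of at least 1, and neighbours within 1000 bases. Any other gene in the text was picked once its values were known. RefSeq places non-coding RNA genes over Cpt1a, Cpt2, Acadm, Acadl and Acadvl, and reads of overlapping genes cannot be told apart without strand. Some genes of the lists are not reported here.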

Additional observations from a re-analysis of the deposited data

How the results depend on the processing

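Of 161 values recomputed under alternatives, 128 moved by less than their own spread over the libraries or, for counts, by at most 1.5 times. Only the log2 ratios could change sign, and none did. S13, S21 and S23 were never the highest or lowest library of a member in the deposited values. Leaving out any of these therefore could not change a member's range, and such values were bound to stay the same. The count of members with a range of at least 1 log2 unit was 2 or 3 under the 7 settings with all 6 libraries, and 3 only with FPKM brought to a common sum, where Acadvl joined. Leaving out each library in turn gave 0 to 2, with 0 without S12 and 2 without any other library. The median range of the members, 0.46, was 0.74 with a common sum and 0.28 after length correction, and 0.32 to 0.46 with 1 library left out. It stayed below that of all expressed genes in each setting, with 0.58 for those genes after length correction. The median log2 ratio of Cpt1a to Cpt1b, 1.47, was 2.50 with a pseudocount of 0.1, which compresses low values less, and 1.34 to 1.60 with 1 library left out. The ratio of Hadha to Hadhb was -0.22 in the deposited values, -0.19 after length correction and -0.22 to -0.21 with 1 library left out. The share of expressed genes with a range of at least 1 was 31.0% at a minimum of 0.1 FPKM and 34.6% at 5 FPKM. No paired analysis was possible because no library has a group. With 11 to 151 counts of Pdk4, depth limits its ratios.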
